A study of Mus musculus with 6 samples.

Results

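The genes described here encode the actomyosin cytoskeleton of 4T1 cells (tumour cells from a BALB/c mouse mammary gland, kept as a line): conventional and unconventional myosins, myosin light chains and their kinase, the targeting subunits of myosin phosphatase, actins, and the tropomyosins, alpha-actinins, calponins, transgelins and thymosins that bind actin. They were chosen by symbol, and 47 of the 13405 genes in the deposited expression files matched. RNA had been sequenced from 3 libraries of ATM KO cells, which lack the ATM kinase of the response to broken DNA according to their label, and from 3 libraries of vector control cells. Both groups are the same line, grown in vitro. The title of the study is about ATM loss, leaked mitochondrial DNA and cGAS-STING signalling, so these genes are not its stated subject. The labels name no clone, no guide and no culture date, and nothing in them tells if a group's 3 libraries were separate cultures. The p-values therefore reflect library-to-library spread only, and that spread may be technical. Acta2, Actg2, Cnn1, Tagln, Actn2 and Actn3, which the choice of genes also names, are not among the listed genes and were not analysed here.

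Non-muscle cells contract when bipolar filaments of myosin II pull on actin filaments. The motor is switched on when its regulatory light chains are phosphorylated by myosin light chain kinase and other kinases, and switched off by myosin phosphatase, a catalytic subunit of protein phosphatase 1 held on myosin by a targeting subunit of the Ppp1r12 family. Tropomyosins coat actin filaments and influence which myosins can bind, alpha-actinins crosslink the filaments, and beta-thymosins hold actin monomers in reserve. Unconventional myosins carry membranes, vesicles and organelles along actin. In carcinoma cells this machinery drives migration, cell shape and division.

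The libraries held 22494919 to 32341508 reads in ATM KO cells and 27264975 to 30042957 reads in vector control cells. Values are normalized read counts, that is, gene reads divided by 1 factor per library. Each log2 difference below is the ATM KO mean minus the control mean of log2(value + 1), with its SE. The added 1 narrows the log2 gaps between low values. For an uneven gene the log2 difference can lie above or below the log2 ratio of its group means. Vector control 1 stood apart, with a correlation across genes of 0.914 to both vector control 2 and vector control 3, which correlated with each other at 0.997; its correlation with ATM KO 2 was 0.965. Atm mRNA itself overlapped between the groups, at 1959, 2220 and 1591 in ATM KO 1 to 3 and 1978, 1613 and 1519 in vector controls 1 to 3, so it does not check the labels, and whether the genetic change alters this mRNA is not known here. Of 9 epithelial markers 8 were listed, with a summed value of 114699 to 159504 in ATM KO and 89389 to 126461 in vector control libraries. None of 6 immune markers was listed (0), and of 4 endothelial markers only Cdh5 was, at no more than 6.84 in ATM KO and 11.7 in vector control libraries. Of 8 stromal markers 3 were listed (Pdgfra, Col1a1 and Col1a2, summing to 344 to 754 in ATM KO and 146 to 547 in vector control libraries). Of 13 skeletal and cardiac muscle markers 4 were listed (Tnnt2, Tnnt3, Tnni2 and Mb), summing to 3370 to 5342 in ATM KO and 3558 to 5363 in vector control libraries, nearly all of it Tnnt2. In bulk RNA, fewer cells of a type and less RNA per cell cannot be told apart.

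For Ppp1r12b, Tmsb4x and Myo7a all ATM KO libraries exceeded all vector controls, and each was called by DESeq2 on the recovered reads and by neither limma nor edgeR. Of the 47 genes, 42 averaged at least 10 across libraries and entered the test, each with a mean of at least 10 in both groups. The other 5 were Myh1, a heavy chain of skeletal muscle, Myl7, a light chain of the atrium, and Myo15b, Myo16 and Myo18b, whose values reached no more than 8.96 in ATM KO and 18.9 in vector control libraries. Limma, the main test, called 0 of the 42 (0% of all 12149 tested genes were called), and edgeR called 0 (0% of all). At an unadjusted limma p under 0.05 there were 5 (11.9%), Ppp1r12b, Tmsb4x, Tagln2, Myo7a and Tpm1, all higher in ATM KO cells, beside 4.16% of all tested genes and 2.77% in that direction. EdgeR also had 5 at an unadjusted p under 0.05, all higher, beside 4.3% and 2.84%, and DESeq2 had 5, all higher, beside 5.9% and 3.75%. After adjustment DESeq2 called 3 (7.14%), all higher, beside 0.691% of all tested genes, 0.56% called as higher and 0.132% as lower. In 5 of the 42 (11.9%) the libraries of the 2 groups did not overlap, beside 11.2% of all tested genes. These 5 were Ppp1r12b, Tmsb4x, Myo7a, Tagln2 and Actn1, each higher in ATM KO cells, beside 5.7% of all tested genes without overlap and higher and 5.48% without overlap and lower. The share without overlap in either direction was near the background.

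**Figure D1:**
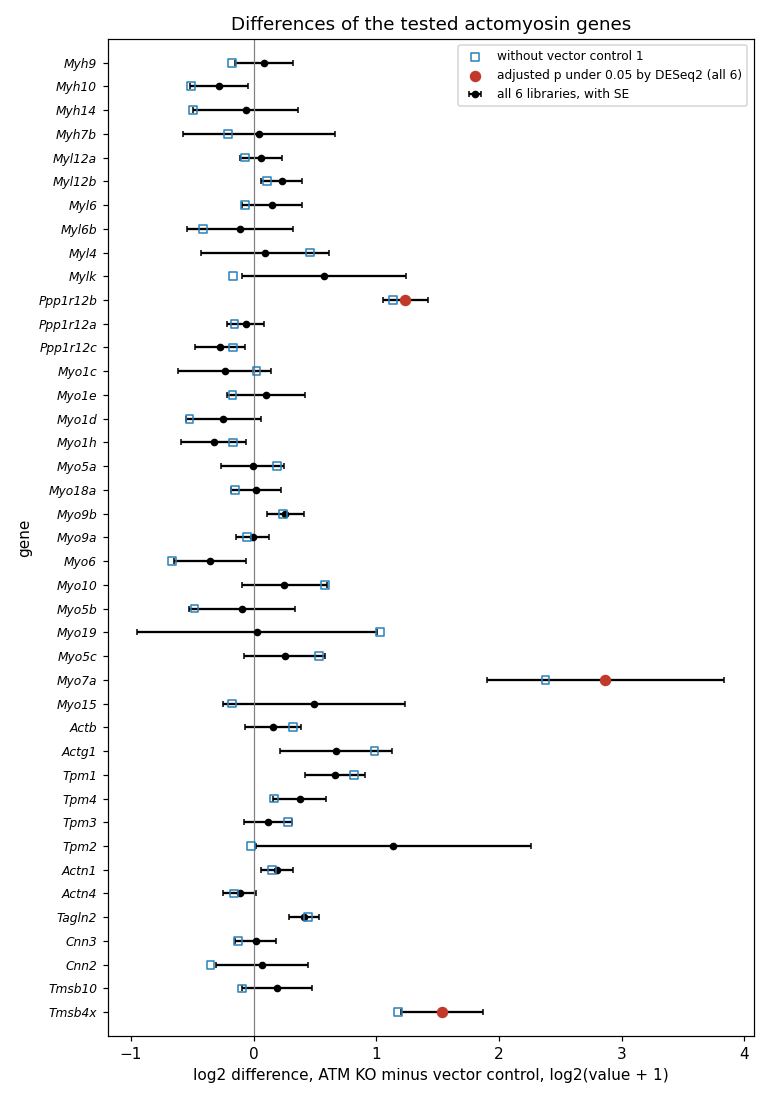
Log2 differences of 41 of the 42 tested genes, ATM KO minus vector control, with the limma SE as bars (black), grouped by role, the values without vector control 1 (open squares) and the genes called by DESeq2 (red). Ppp1r12b, Tmsb4x and Myo7a stand to the right with and without vector control 1, at 1.24, 1.53 and 2.87 over all 6 libraries, while Tpm2 and Mylk move to below 0 without it.

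Over the 42 tested genes the log2 differences ran from -0.35 (Myo6) to 2.87 (Myo7a), with 29 positive and 13 negative and a median of 0.10, against a median of -0.01 over all tested genes. Without vector control 1 the count was 18 positive and 24 negative and the median -0.07. The balance of small positive and negative values therefore turned with 1 library, and the accounts below rest on single genes.

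Among the myosin phosphatase targeting subunits, Ppp1r12b was the only one of 3 whose groups did not overlap. Ppp1r12b (ENSMUSG00000073557, chromosome 1, 134754658 to 134955942, minus strand, GRCm38) encodes MYPT2, the targeting subunit best known from heart, skeletal muscle and brain. It stood at 7657, 5875 and 8224 in ATM KO 1 to 3 and at 2666, 3204 and 3313 in vector controls 1 to 3. The lowest ATM KO library lay well above the highest control, and the group means were 7252 ± 1226 and 3061 ± 346 (SD, n = 3 each), a ratio of 2.37. The log2 difference was 1.24 (SE 0.18, limma unadjusted p = 3.76e-04 and adjusted p = 0.799). DESeq2 gave an adjusted p of 1.11e-05, and when each library was left out in turn its DESeq2 adjusted p ranged from 2.13e-06 to 0.0247. The limma log2 difference stayed between 1.14 and 1.38 when 1 library was left out.

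Ppp1r12a, which encodes MYPT1, the widely expressed subunit, stood at 2283, 2469 and 2631 in ATM KO 1 to 3 and at 2268, 2717 and 2753 in vector controls 1 to 3. Its groups overlapped fully, with a log2 difference of -0.06 (SE 0.15). Ppp1r12c, the third subunit, stood at 1186, 1292 and 907 in ATM KO 1 to 3 and at 1571, 1211 and 1292 in vector controls 1 to 3, again with overlap (log2 -0.27, SE 0.20). Per kb of annotated exon, Ppp1r12b thus made up 47.3% ± 5.76 of the family in ATM KO cells and 25.5% ± 2.27 in vector control cells, Ppp1r12a 30.2% ± 2.37 and 40.2% ± 3.32, and Ppp1r12c 22.5% ± 4.96 and 34.3% ± 5.58 (SD, n = 3 each). The exon length is the union of all annotated exons, 14983 bases for Ppp1r12b, and would understate its share if shorter forms prevailed. An antisense gene overlaps 4.74% of the Ppp1r12b exons, and whether counting used strand is not stated in the sources used here.

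**Figure D2:**
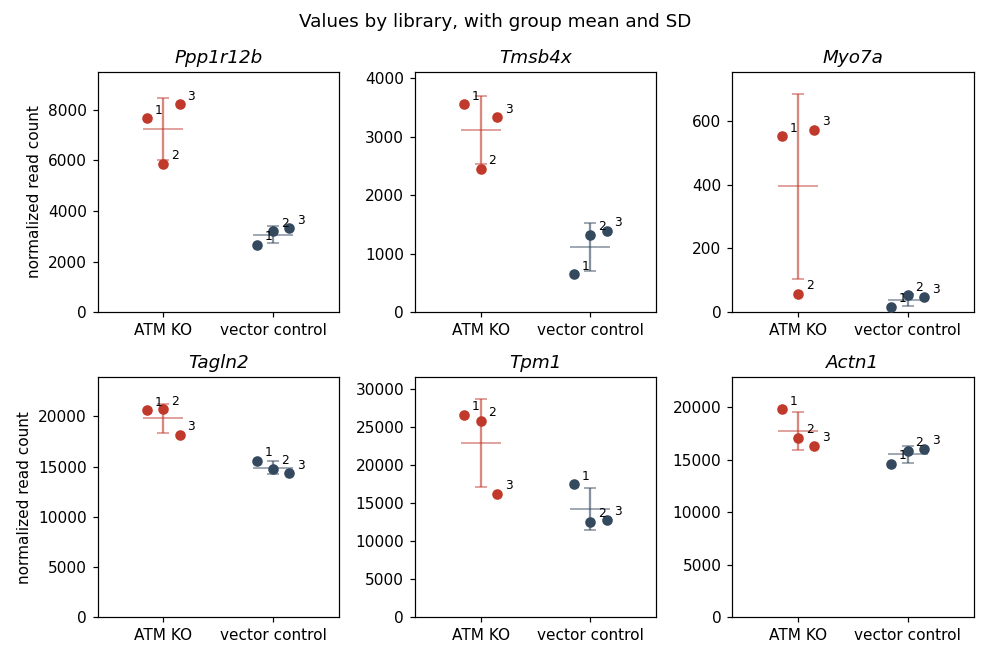
Normalized read counts of 6 genes by library, ATM KO left and vector control right, with the library number beside each point and the group mean and SD as bars; all axes start at 0. Ppp1r12b, Tmsb4x, Myo7a, Tagln2 and Actn1 show no overlap between the groups, Tpm1 overlaps through ATM KO 3 (16280) and vector control 1 (17496), and ATM KO 2 (58.4) is far below the other ATM KO libraries for Myo7a.

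Of the 2 thymosins, which bind actin monomers, Tmsb4x was higher in ATM KO cells. Tmsb4x (ENSMUSG00000049775, chromosome X, 167207093 to 167209315, minus strand, GRCm38) encodes thymosin beta-4, the main monomer-sequestering peptide of many cells. It stood at 3557, 2451 and 3334 in ATM KO 1 to 3 and at 648, 1323 and 1392 in vector controls 1 to 3. The groups did not overlap, and vector control 1 was the lowest library. The log2 difference was 1.53 (SE 0.34, limma adjusted p = 0.999) and 1.18 without vector control 1. The DESeq2 adjusted p was 0.0128, and without single libraries it lay between 4.48e-05 and 0.324, above 0.05 without ATM KO 1 (0.324), ATM KO 3 (0.131), vector control 2 (0.0937) or vector control 3 (0.05004). Tmsb10, encoding thymosin beta-10, stood at 2599, 3021 and 3788 in ATM KO 1 to 3 and at 1836, 3275 and 3331 in vector controls 1 to 3, with overlap (log2 0.19, SE 0.28). Of the distinct 50-base stretches of Tmsb10 transcripts 27.0% also occur in transcripts of other annotated genes, so its reads can be lost or shared, whereas for Tmsb4x the share was 0%.

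Myo7a had the largest log2 difference of the 42 tested genes, and its ATM KO libraries were uneven. Myo7a (ENSMUSG00000030761, chromosome 7, 98051060 to 98119524, minus strand, GRCm38) encodes the myosin VIIA motor of hair cell stereocilia and retinal pigment epithelium. It stood at 552, 58.4 and 573 in ATM KO 1 to 3 and at 17.5, 53.2 and 47.3 in vector controls 1 to 3. ATM KO 1 and 3 were far above the controls, whereas ATM KO 2 exceeded vector control 2 only slightly. The log2 difference was 2.87 (SE 0.97, limma adjusted p = 0.999), and it ranged from 2.31 to 3.95 with 1 library left out. The DESeq2 adjusted p was 0.0137 over all libraries, above 0.05 without ATM KO 1 (0.311), ATM KO 3 (0.220), vector control 2 (0.0556) or vector control 3 (0.0759), and 2.30e-09 without ATM KO 2.

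The other unconventional myosins outside class I overlapped between the groups, and none was called by limma or DESeq2 (0 of 10 each, beside 0% and 0.691% of all tested genes). Myo5a, a carrier of vesicles and the most abundant of them by value, stood at 9905, 11094 and 6865 in ATM KO 1 to 3 and at 12023, 7973 and 8008 in vector controls 1 to 3. ATM KO 3 was its lowest and vector control 1 its highest library, and the log2 difference was -0.01 (SE 0.25). Myo9b, whose tail carries a GTPase-activating domain, averaged 5447 ± 744 in ATM KO and 4519 ± 119 in vector control cells (log2 0.26, SE 0.15). Myo6, the motor that walks towards the minus end of actin, averaged 1942 ± 308 in ATM KO and 2568 ± 838 in vector control cells (log2 -0.35, SE 0.30). Without vector control 1 its log2 difference was -0.66, and DESeq2 then called it as lower (adjusted p = 0.0463). In that setting DESeq2 called 541 of all tested genes, against 84 with all 6 libraries. Myo19, a motor of the mitochondrial outer membrane, varied widely between libraries, with 529, 1100 and 209.9 in ATM KO 1 to 3 and 1961, 239 and 246 in vector controls 1 to 3. Its highest values were in vector control 1 and ATM KO 2, and the log2 difference was 0.03 over all libraries (SE 0.98) but 1.03 without vector control 1. The remaining members were Myo18a, Myo9a, Myo10, Myo5b, Myo5c and Myo15, with log2 differences between -0.09 (Myo5b) and 0.49 (Myo15). Among them Myo10, the motor at filopodial tips, averaged 1779 ± 448 in ATM KO and 1546 ± 670 in vector control cells, and Myo9a, the relative of Myo9b, 2691 ± 189 in ATM KO and 2704 ± 151 in vector control cells.

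Among the class I myosins, single-headed motors that link membranes to actin, the groups overlapped for Myo1c, Myo1d, Myo1e and Myo1h. Myo1c, the most abundant of these by value, stood at 11673, 13016 and 5696 in ATM KO 1 to 3 and at 16091, 9467 and 9270 in vector controls 1 to 3. ATM KO 3 was the lowest and vector control 1 the highest library (log2 -0.24, SE 0.38), and without vector control 1 the difference was 0.02. The log2 difference was -0.25 for Myo1d, 0.10 for Myo1e and -0.33 for Myo1h. In Myo1h, 25.8% of the exon bases overlap Kctd10 on the other strand, so its value is uncertain.

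Tagln2 was above the controls in all ATM KO libraries by a small amount. Tagln2 (ENSMUSG00000026547, chromosome 1, 172500047 to 172507380, plus strand, GRCm38) encodes transgelin-2, an actin-binding protein of non-muscle cells. It stood at 20596, 20692 and 18161 in ATM KO 1 to 3 and at 15566, 14764 and 14353 in vector controls 1 to 3. No library overlapped, and the log2 difference was 0.41 (SE 0.12, limma unadjusted p = 0.0145 and adjusted p = 0.999; DESeq2 adjusted p = 0.176), with a range of 0.38 to 0.47 when 1 library was left out. It passed no adjusted test. The calponins, relatives of transgelin that bind actin, did not separate. Cnn3 averaged 9782 ± 681 in ATM KO and 9747 ± 1582 in vector control cells. Of its 50-base stretches 10.3% also occur in other genes, and 17.7% of its exon bases overlap Gm42928 on the other strand. Cnn2 averaged 5464 ± 1070 in ATM KO and 5545 ± 2302 in vector control cells, with 2889 in vector control 1 as its lowest value.

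All 4 tropomyosins had positive log2 differences and none was called by limma or DESeq2 (0 each, beside 0% and 0.691% of all tested genes). Tpm1 (ENSMUSG00000032366, chromosome 9, 67022590 to 67049406, minus strand, GRCm38) stood at 26654, 25887 and 16280 in ATM KO 1 to 3 and at 17496, 12562 and 12849 in vector controls 1 to 3. ATM KO 1 and 2 were above every control, and ATM KO 3 lay below vector control 1 (log2 0.66, SE 0.25, limma unadjusted p = 0.0329; DESeq2 adjusted p = 0.543). Without vector control 1 the log2 difference was 0.82 and the DESeq2 adjusted p 0.0470, in a setting where DESeq2 called 541 of all tested genes. Tpm4 averaged 15889 ± 1956 in ATM KO and 12442 ± 2895 in vector control cells (log2 0.37, SE 0.22). Of the 50-base stretches of Tpm4 11.65% also occur in transcripts of Gm7809. Tpm3 averaged 2381 ± 263 in ATM KO and 2211 ± 453 in vector control cells, and 23.2% of its 50-base stretches also occur in transcripts of the retrocopy Tpm3-rs7. Tpm2 was the least even of the 4, at 328, 96.6 and 601 in ATM KO 1 to 3 and 23.4, 269 and 273 in vector controls 1 to 3. Its log2 difference was 1.14 (SE 1.12) over all libraries and -0.02 without vector control 1. Per kb of exon, Tpm4 and Tpm1 held most of the family, Tpm4 with 64.1% ± 7.56 in ATM KO and 67.5% ± 9.38 in vector control cells and Tpm1 with 31.4% ± 7.91 and 27.2% ± 8.48. The log2 ratio of Tpm1 to Tpm4 was 0.502 ± 0.564 in ATM KO and 0.213 ± 0.631 in vector control cells (exact permutation test, 2-sided p = 0.9 and adjusted p = 0.9 over 3 ratios, where 0.1 is the smallest p of 3 against 3 libraries).

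**Figure D3:**
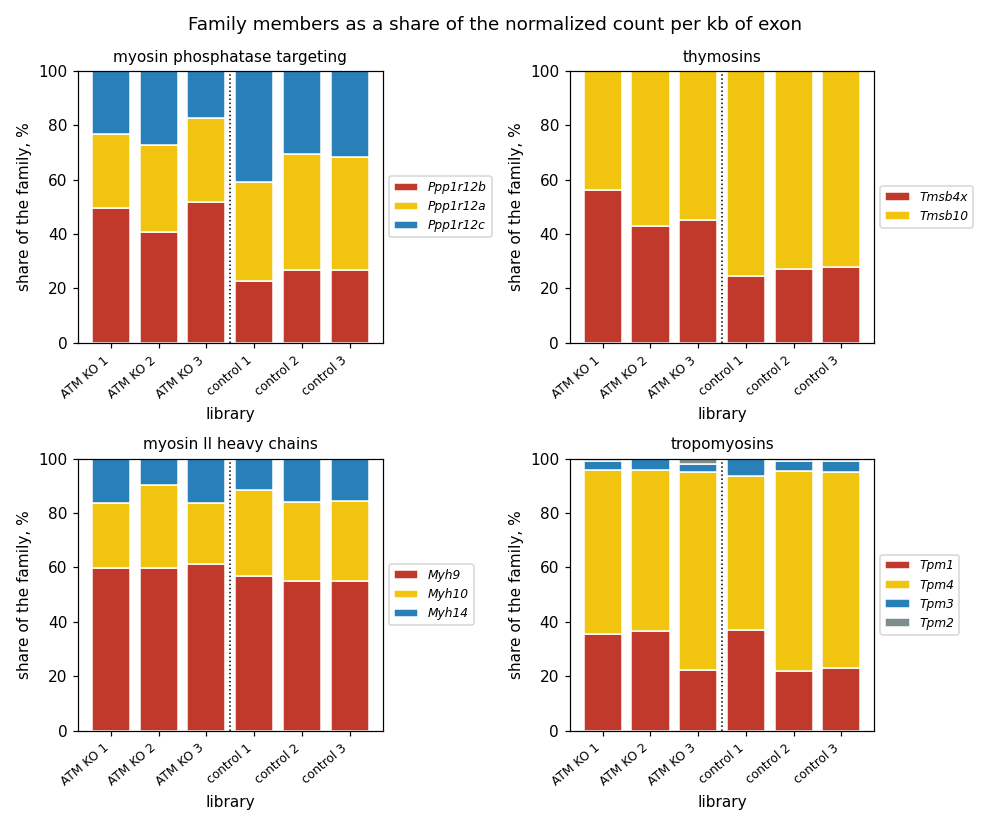
Stacked shares of each family's normalized read count per kb of annotated exon, in percent, for ATM KO 1 to 3 (left of the dotted line) and vector controls 1 to 3. Ppp1r12b holds 40.8 to 51.8% of the phosphatase targeting family in ATM KO and 22.9 to 26.8% in control libraries, and Tmsb4x 43.0 to 56.0% of the thymosins in ATM KO against 24.7 to 28.0% in control libraries, whereas Tpm1 is high in ATM KO 1, ATM KO 2 and control 1.

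The 2 alpha-actinins, crosslinkers of actin filaments at adhesions and stress fibres, had small log2 differences. Limma and DESeq2 called neither (0 each, beside 0% and 0.691% of all tested genes). Actn1 stood at 19781, 17093 and 16338 in ATM KO 1 to 3 and at 14610, 15818 and 16054 in vector controls 1 to 3. The groups did not overlap, but ATM KO 3 and vector control 3 were close (log2 0.19, SE 0.13, limma adjusted p = 0.999). Actn4 averaged 15028 ± 1563 in ATM KO and 16217 ± 882 in vector control cells, with overlap.

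Actb, the cytoplasmic beta-actin, stood at 106764, 115228 and 75324 in ATM KO 1 to 3 and at 109895, 79016 and 77006 in vector controls 1 to 3. Vector control 1 lay between ATM KO 1 and 2, and the groups overlapped (log2 0.16, SE 0.23). Actg1, the gene of the other cytoplasmic actin, was listed at only 11.6 to 33.3 over the 6 libraries. Of its 50-base stretches 37.4% also occur in transcripts of other annotated genes, 33.2% in the pseudogene Gm12715 alone, against 9.12% for Actb. The Actg1 value is therefore reported as uncertain, and the part of shared sequence in its low count was not tested. The log2 ratio of Actb to Actg1 was 11.8 ± 0.574 in ATM KO and 12.3 ± 0.368 in vector control cells (exact permutation test, 2-sided p = 0.3 and adjusted p = 0.45 over 3 ratios).

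For each heavy chain of the myosin II motor the groups overlapped. Myh9, the heavy chain of non-muscle myosin IIA, stood at 38783, 33111 and 34327 in ATM KO 1 to 3 and at 23263, 39686 and 39971 in vector controls 1 to 3. Vector control 1 was the lowest and the other controls the highest libraries, so the ATM KO values lay inside the range of the controls (log2 0.09, SE 0.24). Myh10, the IIB heavy chain, averaged 12056 ± 1809 in ATM KO and 14875 ± 3701 in vector control cells (log2 -0.28, SE 0.23), and Myh14, the IIC heavy chain, 4765 ± 1513 in ATM KO and 5189 ± 2209 in vector control cells. Myh7b, a heavy chain of slow muscle, had 256, 272 and 61.4 in ATM KO 1 to 3 and 111, 181 and 194 in vector controls 1 to 3, so the ATM KO libraries held both its highest and its lowest values. Per kb of exon, Myh9 made up 60.3% ± 0.868 of the 3 non-muscle heavy chains in ATM KO and 55.6% ± 0.922 in vector control cells, Myh10 25.5% ± 4.32 and 30.0% ± 1.67, and Myh14 14.3% ± 3.82 and 14.4% ± 2.58 (SD, n = 3 each). The log2 ratio of Myh9 to Myh10, which does not depend on the scaling of a library, was 1.63, 1.28 and 1.77 in ATM KO 1 to 3 and 1.13, 1.24 and 1.22 in vector controls 1 to 3. Every ATM KO library had the higher ratio, although ATM KO 2 lay close to the controls, and the difference of 0.37 reached the smallest p that 3 against 3 libraries allow (exact permutation test, 2-sided p = 0.1, adjusted p = 0.3 over 3 ratios).

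The groups overlapped for every light chain as well. Myl12a, a regulatory light chain of non-muscle myosin, stood at 11463, 10881 and 9184 in ATM KO 1 to 3 and at 8397, 11072 and 10861 in vector controls 1 to 3, with overlap (log2 0.06, SE 0.17). Its neighbour Myl12b averaged 3312 ± 310 in ATM KO and 2836 ± 388 in vector control cells, and 16.4% and 25.4% of the 50-base stretches of Myl12a and Myl12b occur in other genes, mostly in an overlapping annotated gene that spans both, so their reads can be shared. Myl6, the essential light chain, stood at 1865, 2159 and 1552 in ATM KO 1 to 3 and at 1221, 1870 and 1998 in vector controls 1 to 3, with overlap (log2 0.15, SE 0.24). Myl6b averaged 138 ± 51.8 in ATM KO and 147 ± 47.4 in vector control cells, and Myl4, an atrial light chain, 12.5 ± 3.43 in ATM KO and 12.2 ± 6.33 in vector control cells. Mylk, the kinase of the regulatory light chains, had low values of 128, 74.3 and 84.5 in ATM KO 1 to 3 and 21.4, 104 and 106 in vector controls 1 to 3. Vector control 1 was its lowest library by far, and the log2 difference was 0.58 (SE 0.67) over all libraries but -0.17 without that one.

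The sequence upstream of the start sites is shown for the 5 genes whose groups did not overlap and for Tpm1, because they can be compared for elements that regulate contractile genes. Each line gives the 250 bases before an annotated start site (RefSeq, GRCm38.p6), 5′ to 3′ in the direction of transcription, with capitals for matches to the MCAT element bound by TEAD factors (CATTCC, or GGAATG on the other strand) and to the CArG box bound by serum response factor, each searched on both strands. Ppp1r12b and Myo7a each have an internal and an upstream start site, and the gene-level values do not tell which was used.
Ppp1r12b internal start, chr1:134803843-134804092, minus strand: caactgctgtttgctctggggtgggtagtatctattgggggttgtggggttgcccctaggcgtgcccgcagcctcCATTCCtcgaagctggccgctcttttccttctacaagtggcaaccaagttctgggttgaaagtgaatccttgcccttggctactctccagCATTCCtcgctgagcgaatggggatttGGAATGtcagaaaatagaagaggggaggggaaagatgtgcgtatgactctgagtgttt
Ppp1r12b upstream start, chr1:134955941-134956190, minus strand: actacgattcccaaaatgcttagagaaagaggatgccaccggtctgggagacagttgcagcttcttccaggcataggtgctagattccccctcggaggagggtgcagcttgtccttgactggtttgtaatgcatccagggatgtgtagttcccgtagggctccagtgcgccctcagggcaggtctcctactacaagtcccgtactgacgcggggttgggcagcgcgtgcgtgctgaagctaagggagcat
Tmsb4x, chrX:167209219-167209468, minus strand: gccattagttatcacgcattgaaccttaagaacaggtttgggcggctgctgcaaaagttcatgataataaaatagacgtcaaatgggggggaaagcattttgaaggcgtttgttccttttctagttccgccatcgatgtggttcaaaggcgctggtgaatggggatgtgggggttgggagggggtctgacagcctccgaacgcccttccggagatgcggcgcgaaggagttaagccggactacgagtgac
Myo7a upstream start, chr7:98119494-98119743, minus strand: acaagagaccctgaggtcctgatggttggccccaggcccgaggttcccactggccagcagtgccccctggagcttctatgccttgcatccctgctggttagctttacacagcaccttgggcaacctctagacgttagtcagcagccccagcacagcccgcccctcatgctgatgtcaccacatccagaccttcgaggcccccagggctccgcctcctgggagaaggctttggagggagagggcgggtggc
Myo7a internal start, chr7:98109249-98109498, minus strand: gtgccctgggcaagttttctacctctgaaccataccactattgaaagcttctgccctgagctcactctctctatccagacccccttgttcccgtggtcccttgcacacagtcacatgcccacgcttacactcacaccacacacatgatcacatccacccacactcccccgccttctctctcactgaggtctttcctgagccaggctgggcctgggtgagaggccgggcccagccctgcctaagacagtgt
Tagln2, chr1:172499996-172500245, plus strand: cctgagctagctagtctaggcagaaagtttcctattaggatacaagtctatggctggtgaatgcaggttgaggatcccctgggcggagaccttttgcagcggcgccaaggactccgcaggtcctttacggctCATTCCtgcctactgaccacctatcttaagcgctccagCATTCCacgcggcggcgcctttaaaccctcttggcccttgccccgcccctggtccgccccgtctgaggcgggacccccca
Actn1, chr12:80260364-80260613, minus strand: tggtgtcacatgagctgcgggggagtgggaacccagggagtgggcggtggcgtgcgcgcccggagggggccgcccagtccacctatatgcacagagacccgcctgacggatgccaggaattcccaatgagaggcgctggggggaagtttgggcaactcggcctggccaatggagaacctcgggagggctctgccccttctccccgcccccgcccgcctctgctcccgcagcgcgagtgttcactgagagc
Tpm1, chr9:67049214-67049463, minus strand: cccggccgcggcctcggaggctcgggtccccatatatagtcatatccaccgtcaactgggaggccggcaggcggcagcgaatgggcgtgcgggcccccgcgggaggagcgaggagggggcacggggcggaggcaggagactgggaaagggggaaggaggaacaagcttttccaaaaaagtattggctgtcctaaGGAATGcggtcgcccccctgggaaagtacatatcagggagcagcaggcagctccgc
The window before the internal start of Ppp1r12b holds 3 MCAT matches, at 175, 85 and 58 bases before the start, Tagln2 holds 2, at 118 and 80 bases, and Tpm1 holds 1, at 56 bases. The upstream window of Ppp1r12b and the windows of Tmsb4x, Myo7a and Actn1 hold 0. Windows were found for 42 of the 47 genes, and 12 of these (28.6%) had an MCAT match in at least 1 window, beside 14.4% of all 27025 genes with windows. The other 9 were Actn4, Myh10, Myo6 and Myo1h, with log2 differences of -0.11, -0.28, -0.35 and -0.33, Mylk, Myo10 and Myo9b, with 0.58, 0.25 and 0.26, all 7 with overlapping groups, and Myh1 and Myl7, which were not tested. A match is a run of letters and not a bound site.

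CArG boxes were found in 5 of the 42 genes with windows (11.9%), beside 1.62% of all genes with windows, and in none of the windows printed above (0). The 2 motifs shared bases in 0 windows of these genes. The genes with a CArG box were Actg1, Cnn2, Myl6, Myl7 and Myo1e. Stretches of 40 bases around the box, in capitals, are shown for the 4 tested ones, whose values overlapped between the groups.
Cnn2, chr10:79988529-79988568, plus strand: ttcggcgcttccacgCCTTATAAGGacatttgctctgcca
Myl6, chr10:128493035-128493074, minus strand: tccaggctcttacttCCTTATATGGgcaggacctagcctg
Myo1e, chr9:70207303-70207342, plus strand: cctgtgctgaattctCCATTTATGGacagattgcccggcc
Actg1, chr11:120348561-120348600, minus strand: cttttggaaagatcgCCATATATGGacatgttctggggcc
The box starts 56 bases before the start site in Cnn2, 50 in Myl6, 32 in Myo1e and 90 in Actg1.

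**Figure D4:**
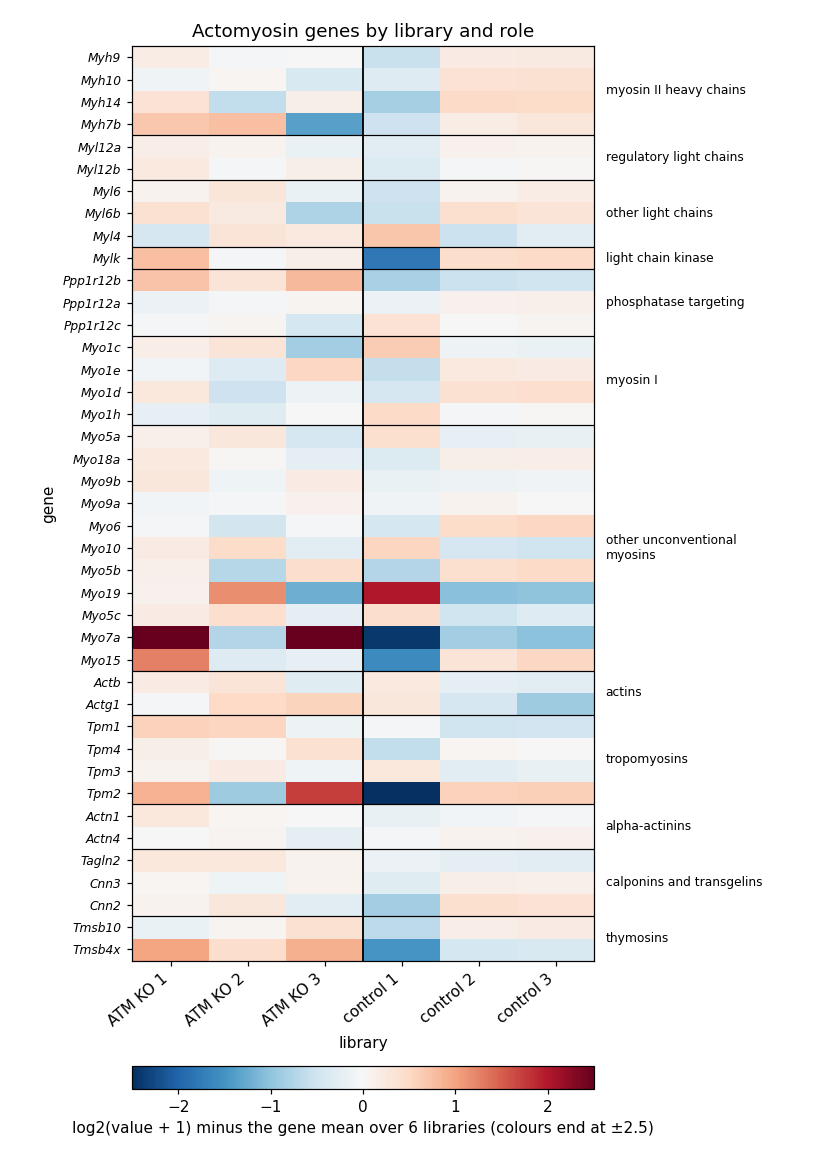
Log2(value + 1) of 41 of the 42 tested genes minus each gene's mean over the 6 libraries, ATM KO left and vector control right, grouped by role. Vector control 1 is the lowest library (blue) in many rows, whereas vector controls 2 and 3 are nearly alike.

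Much of the variation among these genes lay between vector control 1 and the other controls. Vector control 1 was the lowest of the 6 libraries in 23 of the 42 genes (54.8%) and the highest in 9 (21.4%), beside 31.2% and 31.9% of all tested genes. On the log2 scale it lay below the mean of vector controls 2 and 3 in 29 genes (69.0%) and above it in 13. Over all tested genes it lay below in 50.9%. The distance was at least 1 in 11 genes (26.2%, 9 of them below and 2 above), beside 28.7% of all tested genes. The median distance was 0.76 (0.60 over all tested genes), while vector controls 2 and 3 differed from each other by a median of 0.04. Genes furthest below in vector control 1 were Tpm2 (-3.48), Mylk (-2.24) and Myo15 (-2.01), and the gene furthest above was Myo19 (3.01). Within the ATM KO libraries the ratio of the highest to the lowest was 9.82 for Myo7a, 6.23 for Tpm2 and 5.24 for Myo19, but 1.14 for Tagln2 and 1.40 for Ppp1r12b.

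Neither of the next 2 lists of genes around this machinery held a gene called by limma or DESeq2. Over all tested genes the shares called were 0% and 0.691%, so counts of 0 were near the background. Of 21 tested genes of serum response factor, its cofactors and other targets, 15 were positive and 6 negative with a median log2 difference of 0.18 (0.01 without vector control 1; all tested genes -0.01), and limma and DESeq2 called 0. Without overlap, 4 of these genes (19.0%), Cald1, Zyx, Flna and Pdlim7, were higher and 0 were lower. Over all tested genes 5.7% were higher and 5.48% lower without overlap. Pdlim7, an adaptor of stress fibres, stood at 3853, 3393 and 5114 in ATM KO 1 to 3 and 2790, 3083 and 3018 in vector controls 1 to 3, with no overlap (log2 0.45, SE 0.19, limma unadjusted p = 0.0478 and adjusted p = 0.999). The largest difference of this list was negative, in Csrp2, a LIM-domain protein of smooth muscle, named after its values were seen. It stood at 283, 334 and 206 in ATM KO 1 to 3 and 298, 608 and 634 in vector controls 1 to 3, with overlap through vector control 1 (log2 -0.85, SE 0.37, unadjusted p = 0.0574 with limma, 0.0435 with edgeR and 0.0231 with DESeq2). Of 53 tested genes of actin assembly, capping, bundling and crosslinking, 34 were positive and 19 negative with a median of 0.05 (0.0031 without vector control 2 and -0.017 without vector control 3), and limma and DESeq2 again called 0. Gsn, the actin-severing protein gelsolin, stood at 6900, 5510 and 6535 in ATM KO 1 to 3 and 5143, 4557 and 4716 in vector controls 1 to 3, without overlap (log2 0.39, SE 0.14, limma unadjusted p = 0.0339). The largest difference of this list was negative, in Lcp1, named after its values were seen. Lcp1 stood at 739, 1364 and 139 in ATM KO 1 to 3 and 1573, 1355 and 1394 in vector controls 1 to 3, with overlap (log2 -1.46, SE 0.79). In this list 5 genes were higher without overlap and 2, Wasf1 and Arpc3, were lower, beside 5.7% and 5.48% of all tested genes. Among the cell type markers, Krt14, a basal keratin, stood at 2223, 1370 and 2311 in ATM KO 1 to 3 and 149.9, 684 and 654 in vector controls 1 to 3, and the junction gene Cldn4 at 18014, 13011 and 26219 and at 8863, 11134 and 11458. Both were higher in every ATM KO library, their part in the values above was not tested, and neither passed DESeq2 (adjusted p = 0.0641 and 0.322). The other 6 tested epithelial markers overlapped between the groups, with log2 differences from 0.03 (Cdh1) to 0.51 (Krt7). Without vector control 1 those of Epcam and Krt19 were -0.46 and -0.52, while those of Cdh1, Krt7, Krt8 and Krt18 stayed positive. The skeletal troponin gene Tnnt3 stood at 26.5, 11.7 and 28.2 in ATM KO 1 to 3 and 2.92, 8.71 and 4.20 in vector controls 1 to 3. Its mean of 13.7 was close to the minimum of 10 (log2 1.89, SE 0.59, limma adjusted p = 0.999 and DESeq2 adjusted p = 0.445). Of the other tested muscle markers, Tnni2 (log2 0.64, SE 0.55) and Tnnt2 (log2 -0.07, SE 0.26) overlapped between the groups.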

How the data were processed

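The authors deposited RNA-seq of 6 libraries as 1 signal per gene and library, a read count scaled by a library factor. No header says so; the low values of a library share 1 step, and dividing by it turned all values (100%) into whole reads within 0.01 reads. Per the submitters' processing notes, DESeq2, HTSeq, STAR, SAMtools, cutadapt and Trim Galore were used, and both mm9 and GRCm38 are named, with no versions, roles or order. What decided which genes were listed was not stated. Samples were grouped by title.

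The main test was limma 3.58.1 (R 4.3.3, empirical Bayes with trend, 2-sided) on log2(value + 1) for the 12149 genes with a mean of at least 10, adjusted by Benjamini-Hochberg at 0.05. EdgeR 4.0.16 (quasi-likelihood) and DESeq2 1.42.0 on the recovered reads, other pseudocounts, filters and scalings, the label number as a block and leaving out each library were alternatives. DESeq2 without each library was added after the data were seen. The fits were tested on simulated data as a check of the code, which is no support for the calls above. Log2 ratios of member pairs were tested exactly; that of Myl9 to the Myl12 genes was not run, since Myl9 was not among the listed genes. Counting error is large for genes at values of about 10, since 1 read is worth about 1, and the number of libraries limits the precision.

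Coordinates, exon unions and 50-base stretches come from GENCODE M21 (GRCm38), which held all 47 genes, and windows before start sites from RefSeq (GRCm38.p6). A tested member enters the counts and is not reported here by value, and 1 list of regulators is not reported here. The members and lists were chosen with earlier results of these data known. Values in every library are given for members called by a tool, with an unadjusted limma p under 0.05, without overlap, or with the highest mean of their role, and for others singled out after their values were seen (Myo19, Tpm2 and Atm among them). From each list, up to 4 genes called or with an unadjusted limma p under 0.05 are named, and others after their values were seen.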

Additional observations from a re-analysis of the deposited data

How the results depend on the processing

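Limma called 0 genes and 0 members under every alternative that used it: other pseudocounts, filters and scalings, and each library left out in turn. The tool decided the calls, since DESeq2 called 84 genes and 3 members, where limma and edgeR called 0; the cause was not tested. With 1 library left out of limma or DESeq2, the count of genes ranged from 0 to 541 and that of members from 0 to 5, and within DESeq2 alone from 14 (without vector control 2) to 541 (without vector control 1) and from 1 to 5. The counts ranged from 0 to 1 for serum response factor and 0 to 1 for actin assembly. Ppp1r12b was called by DESeq2 whichever library was left out. Tmsb4x and Myo7a were called over all 6 libraries, without ATM KO 2 and without vector control 1, and not without any other. Tpm1 and Myo6 were called without vector control 1 only.

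The log2 difference changed sign for 20 of 41 tested members when 1 library was left out of limma or DESeq2, and the cause was not tested. Their ranges were Cnn2 -0.35 to 0.28, Cnn3 -0.13 to 0.094, Myh14 -0.50 to 0.22, Myh7b -0.32 to 0.74, Myh9 -0.17 to 0.22, Myl12a -0.068 to 0.15, Myl4 -0.22 to 0.54, Myl6 -0.069 to 0.29, Myl6b -0.41 to 0.25, Mylk -0.17 to 0.96, Myo15 -0.27 to 0.88, Myo18a -0.15 to 0.14, Myo19 -1.16 to 1.35, Myo1c -0.46 to 0.14, Myo1e -0.17 to 0.29, Myo5a -0.16 to 0.22, Myo5b -0.48 to 0.23, Myo9a -0.065 to 0.034, Tmsb10 -0.092 to 0.34 and Tpm2 -0.020 to 1.87. Over all 6 libraries Cnn3 was -0.00027 with edgeR, Cnn2 -0.026 with edgeR and -0.018 with DESeq2, Myo19 -0.41 with both, and Myo5a 0.028 and Myo9a 0.029 when scaled to the library total. The 21 other members kept their sign in all alternatives run. Scaling to the library total moved the median of all genes from -0.01 to 0.03.

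With the number in the labels as a replicate block, limma called 0 genes and 0 members, 4 members had an unadjusted p under 0.05, and the smallest adjusted p was 0.9999. Deviations of libraries with the same number correlated across genes at -0.02, -0.58 and 0.53 for numbers 1 to 3. ATM KO 3 correlated as much with vector control 2 (0.53), and the highest correlation was that of ATM KO 2 with vector control 1 (0.61). The numbers were therefore not taken to pair the libraries.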
